A study of Caligus rogercresseyi with 6 samples.

Results

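Adult females of the sea louse Caligus rogercresseyi were compared with chalimi, the larvae fixed to the host, by RNA-seq of whole animals. The comparison covers the contigs (assembled transcript sequences) that had 50 or more counts in either library, which were 22402 of the 44089 in the files. They held 99.9% of the adult female counts and 99.9% of the chalimus counts. The adult female group was wild type, adult and female, the chalimus group was wild type at the chalimus stage, and each was 1 library of RNA pooled from whole lice taken from farmed Atlantic salmon. Egg, copepodid (the free-swimming infective larva) and adult male libraries, 1 each and also labelled wild type and whole, show where the same contigs stand elsewhere. The labels do not give the number of animals in a pool, the instar or sex of the chalimi, or whether the females carried egg strings.

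Caligus rogercresseyi is a copepod that feeds on the mucus, skin and blood of salmonid fish. After settling, the larva moults through the chalimus instars while tethered to the host by a frontal filament, and the adult is free to move over the skin. Adult female copepods make yolk, fill oocytes with it and carry the fertilised eggs in external strings, whereas the chalimus is a growing, moulting animal. In whole animals, fewer cells of a type and less RNA per cell cannot be told apart.

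The deposited totals were 149426248 counts for adult female and 116318842 for chalimus. The egg, copepodid and adult male libraries held between 78380827 and 130218357 counts. A further file, labelled adult with no sex, had exactly the summed total of the female and male files. It was used to check how stable the counts of a contig were, and it was among the files over which the scaling was computed. The copepodid table lacked 1.08% of the total its FPKM were scaled by, so a 0 there means 0 in the table. The files do not pair identifiers with gene names, and contigs are therefore described by their levels, lengths and standing among the libraries, with no gene function. For the same reason the labelled stages could not be checked against marker genes.

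Each group has a single library, so differences were not tested and none has a replicate behind it. A contig was called higher or lower when the libraries differed at least 4-fold after scaling by trimmed mean of M-values (TMM) and the higher library had 50 or more counts. Levels are given as CPM (counts scaled to the deposited library total), or as the authors' FPKM where contigs of different length are set side by side. Folds are TMM-scaled and so differ slightly from a ratio of printed CPM.

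Adult female differed from chalimus more often by loss than by gain, while the gains were the more concentrated. Of the 22402 contigs, 2059 were higher in adult female (9.19%) and 4323 were lower (19.3%), and the other 16020 were within 4-fold. The higher contigs held 25.7% of the adult female counts, against 2.91% of the chalimus counts. The lower contigs held 1.45% of the adult female counts, against 30.9% of the chalimus counts. The median log2 ratio over all 22402 contigs was -0.01.

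**Figure D1:**
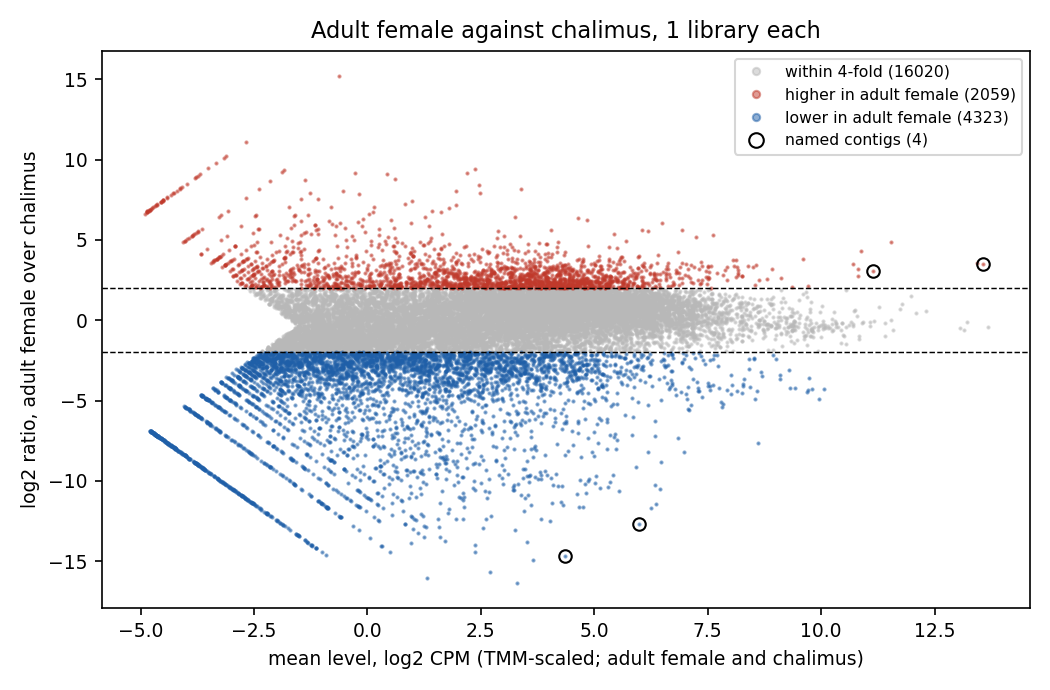
Log2 ratio of adult female over chalimus (vertical axis) against the mean level of both libraries in log2 CPM (horizontal axis), 1 point per contig. The 2059 higher contigs and the 4323 lower ones lie beyond the dashed 4-fold lines, the lower contigs reach further from 0, and the diagonal streaks on the left are contigs with 0 or a few counts in 1 of the 2 libraries.

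Gains were mostly moderate in size, and most of the contigs were already counted in chalimus. The median higher contig was 6.22-fold higher in adult female, or 6.25-fold when contigs with 0 chalimus counts were set at their lower bound. Of the 2059 higher contigs, 1342 were 4- to 8-fold higher, 439 were 8- to 16-fold, 183 were 16- to 64-fold and 95 were 64-fold or more. In chalimus 1516 of them (73.6%) had 50 or more counts, and 44 had 0 counts. For those 44 the fold is only bounded, from at least 13.8-fold to at least 5235-fold, computed with 3 counts in the chalimus library. They added 0.0185% of the adult female counts, so nearly all of the gained counts fell on contigs that the chalimus library also held.

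A few contigs carried most of the gain. Of the counts that the higher contigs held in adult female, 7 contigs held at least 50%, and the 2 most counted held 8.45% of the whole adult female library. Without the 10 most counted, the remaining higher contigs still held 11.8% of the adult female counts, against 1.69% of the chalimus counts. The share called higher rose with the level in adult female, which also enters the ratio and the call. Among tested contigs over 100 CPM in adult female 15.8% were higher, between 10 and 100 CPM 12.5%, between 1 and 10 CPM 8.66% and under 1 CPM 3.85%. Of the 6316 tested contigs under 1 CPM in adult female, only 3305 had the 50 counts needed for a call. The rule itself thus lowers that last share.

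Losses were larger in fold, more numerous and more evenly spread. The median lower contig was 11.9-fold lower in adult female, or 12.1-fold with contigs at 0 female counts set at their lower bound. Of the 4323 lower contigs, 1581 were 4- to 8-fold lower, 895 were 8- to 16-fold, 776 were 16- to 64-fold and 1071 were 64-fold or more. In adult female 2005 of them (46.4%) still had 50 or more counts, and 321 had 0 counts. For those 321 the lower bounds ran from 20.5-fold to 4429-fold, with a median of 85.8-fold. It took 79 contigs to reach 50% of the counts that the lower set held in chalimus, and the 10 most counted held 4.91% of the chalimus library. Without those 10, the lower contigs still held 1.34% of the adult female counts, against 26.0% of the chalimus counts. The share called lower had no steady trend with level in chalimus, at 19.6% of those tested under 1 CPM, 20.01% from 1 to 10 CPM, 16.4% from 10 to 100 CPM and 30.2% over 100 CPM. Of the 4042 tested contigs under 1 CPM in chalimus, only 2923 had the 50 counts needed for a call.

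The contigs gained by adult female were then placed by their levels in egg and adult male. A library was taken as near the female level when its scaled level was within 4-fold of adult female or above it. By this measure 775 of the 2059 higher contigs (37.6%) were near the female level in egg only, 127 (6.17%) in adult male only, 139 (6.75%) in both and 1018 (49.4%) in neither. Among higher contigs whose counts were stable within 1% when the sexes were counted together, egg only and neither had 553 each. Over all 19391 contigs with 50 or more counts in adult female, 11.7% were near that level in egg only, 8.73% in adult male only, 72.6% in both and 7.01% in neither. The higher contigs were chosen on the female count, which also enters these ratios, so the contrast is a description of the set. Adult male was the rarest match, with 266 higher contigs (12.9%) near the female level, whereas egg matched 914 (44.4%). Over all 19391 contigs the shares were 81.3% for adult male and 84.3% for egg.

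The group with no match in egg or adult male carried most of the gained counts. Its 1018 contigs held 20.9% of the adult female counts, against 2.05% of the chalimus counts. In egg the same contigs held 0.672%, in copepodid 0.239% and in adult male 0.242%. The 4 most counted of them carried at least 50% of the group's female counts, and the 10 most counted held 13.4% of the adult female library. The median contig of the group stood at 22.2 CPM in adult female, against 2.83 CPM in chalimus. It stood at 1.21 CPM in egg and 0.269 CPM in adult male. Among the 269 higher contigs over 100 CPM in adult female, 178 (66.2%) belonged to this group.

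The most abundant per nucleotide of these was GAZX01008936, 5872 nt long. It had 6559259 counts in adult female (43896 CPM), against 463487 in chalimus (3985 CPM). It had 362 counts in egg, 310 in copepodid and 4503 in adult male. Adult female was thus the highest library, chalimus the only other one above 100 CPM, and the fold between the pair was 11.3 (95% counting interval 11.26 to 11.32). Against adult male the female level was 1146-fold higher (1113 to 1181) and against egg 17770.3-fold higher (16031 to 19753). These are exact (Clopper-Pearson) intervals for counting error only, and they are approximate if the deposited counts are rounded estimates, since the handling of reads matching several contigs is not stated.

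The contigs shared with egg held fewer female counts, spread over more contigs. The 775 contigs near the female level in egg only held 3.97% of the adult female counts, against 0.680% of the chalimus counts. In egg they held 5.82%, in copepodid 1.024% and in adult male 0.273%. Their median level was 19.4 CPM in adult female, against 3.24 CPM in chalimus, with 15.7 CPM in egg and 1.32 CPM in adult male. It took 50 of them to reach 50% of the group's female counts. In 183 of the 775 the egg level was above the female level, and in 78 it was at least 4-fold above it. Of all 2268 egg-only contigs with 50 or more female counts, 642 were above and 249 at least 4-fold above.

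GAZX01022905, 917 nt long, was the most abundant per nucleotide of the contigs shared with egg only. It had 1053520 counts in adult female (7050.4 CPM), against 99823 in chalimus (858 CPM). It had 354894 counts in egg (2941 CPM), 3034 in copepodid (38.7 CPM) and 60 in adult male (0.461 CPM). Adult female and egg were the highest libraries and adult male the lowest. The adult female level was 8.42-fold above chalimus (8.36 to 8.47) and 2.91-fold above egg (2.90 to 2.92). Per nucleotide it was close to the far longer GAZX01008936 in adult female, at 7683 FPKM for GAZX01022905 and 7470.3 FPKM for GAZX01008936. In egg the same pair stood at 3202 and 0.51 FPKM. The pair thus had like levels in adult female. That they differed in egg follows from the classes they were picked from, so the contrast is only a description.

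Few gains were common to both sexes. The 127 higher contigs near the female level in adult male only held 0.656% of the adult female counts, against 0.131% of the chalimus counts, and 1.03% of the adult male counts. In egg they held 0.0210%. In 47 of them the male level was above the female level. Of all 1692 male-only contigs with 50 or more female counts, it was above in 1182. Of the 127 contigs, only 3 carried at least 50% of the group's female counts. The 139 contigs near the female level in both egg and adult male held 0.236% of the adult female counts, against 0.0479% of the chalimus counts, with 0.219% of the egg and 0.0815% of the adult male counts.

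**Figure D2:**
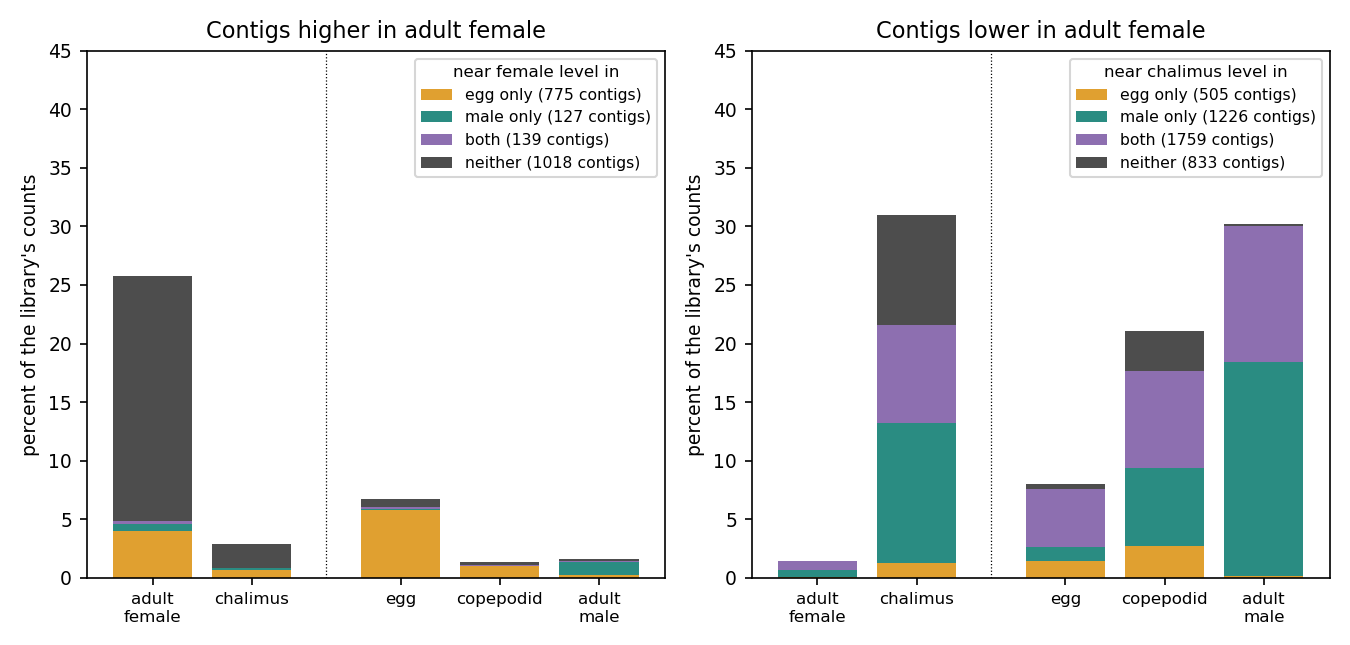
Percent of each library's counts (vertical axis) held by the 2059 higher contigs (left panel) and the 4323 lower contigs (right panel), with colours for the libraries in which a contig was near the adult female level (left) or the chalimus level (right). In the left panel the contigs near in neither make up 20.9% of adult female counts, and in the right panel the contigs near in adult male make up nearly all of the 30.2% bar of adult male.

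The contigs lost by adult female were placed against the chalimus level in the same way. Of the 4323 lower contigs, 505 (11.7%) were near the chalimus level in egg only, 1226 (28.4%) in adult male only, 1759 (40.7%) in both and 833 (19.3%) in neither. With a 2-fold limit the largest group was adult male only, with 1528 contigs, and 769 were near in both. Over all 21283 contigs with 50 or more counts in chalimus, 5.82% were near in egg only, 13.01% in adult male only, 75.7% in both and 5.44% in neither. Adult male was near the chalimus level for 2985 of the lower contigs (69.0%) and egg for 2264 (52.4%). Over all 21283 contigs both shares were larger, at 88.7% for adult male and 81.6% for egg. The male and female levels are both set against the same chalimus library. The median lower contig stood at 0.261 CPM in adult female, against 5.86 CPM in chalimus, and at 1.61 CPM in egg, 1.38 CPM in copepodid and 2.04 CPM in adult male.

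Lower contigs near the chalimus level in adult male held 20.4% of the chalimus counts, the larger part of the 30.9% in the lower set. Over all contigs with 50 or more chalimus counts, those near in adult male held 86.8% of the chalimus counts. The losses were thus not richer in such counts than the whole library. The 1226 contigs near in adult male only held 0.637% of the adult female counts, against 11.98% of the chalimus counts. In adult male they held 18.3%, in copepodid 6.73% and in egg 1.27%. In 799 of them the adult male level was above that of chalimus. Over all 2768 contigs of this class with 50 or more chalimus counts, it was above in 1973. The median level of the 1226 was 0.315 CPM in adult female, against 8.96 CPM in chalimus, and was 13.4 CPM in adult male and 0.257 CPM in egg. The 1759 contigs near in both egg and adult male held 0.715% of the adult female counts, against 8.39% of the chalimus counts, and held 4.89% of the egg and 11.6% of the adult male counts. These 1759 fell least, with a median log2 ratio of -2.78 in adult female over chalimus.

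The most abundant per nucleotide of the contigs near the chalimus level in adult male only was GAZX01020157, 852 nt long. It had 127 counts in adult female (0.850 CPM), against 656425 in chalimus (5643 CPM). It had 9162 counts in egg (75.9 CPM), 308272 in copepodid (3933 CPM) and 700212 in adult male (5377 CPM). Copepodid, chalimus and adult male were all high, adult female was the lowest library, and egg was intermediate. The adult female level was 6479-fold lower than in chalimus (5446 to 7772), and the adult male level was 1.081-fold that of chalimus (1.078 to 1.085). In FPKM it stood at 0.997 in adult female, 6618 in chalimus and 6309 in adult male.

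The 833 contigs near in neither egg nor adult male had most of their counts in chalimus and copepodid among these libraries. The call and the class put adult female, egg and adult male at least 4-fold below chalimus. Only copepodid was left free, so this pattern is largely set by the choice of contigs. They held 0.0371% of the adult female counts, against 9.33% of the chalimus counts. In copepodid they held 3.38%, in egg 0.405% and in adult male 0.185%. The copepodid counts fell on part of the group: its median copepodid level was 0.523 CPM and 335 of the 833 had 0 counts there. In 133 the copepodid level was above chalimus. The 833 contigs fell furthest, with a median level of 0.0402 CPM in adult female against 11.4 CPM in chalimus, and 196 of them had 0 counts in adult female. They were also the shortest group, with a median length of 694 nt, against 1493 nt over all contigs tested.

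GAZX01031613, 618 nt long, was the most abundant per nucleotide of these. It had 20 counts in adult female (0.134 CPM), against 424747 in chalimus (3652 CPM). It had 252 counts in egg, 11198 in copepodid (143 CPM) and 124 in adult male. Chalimus was far above every other library and copepodid came next. The adult female level was 26623-fold lower than in chalimus (17238 to 43586), and chalimus was 2072-fold above egg (1831 to 2354). With 20 counts in adult female the interval is wide, and its lower end is above the whole interval of GAZX01020157.

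**Figure D3:**
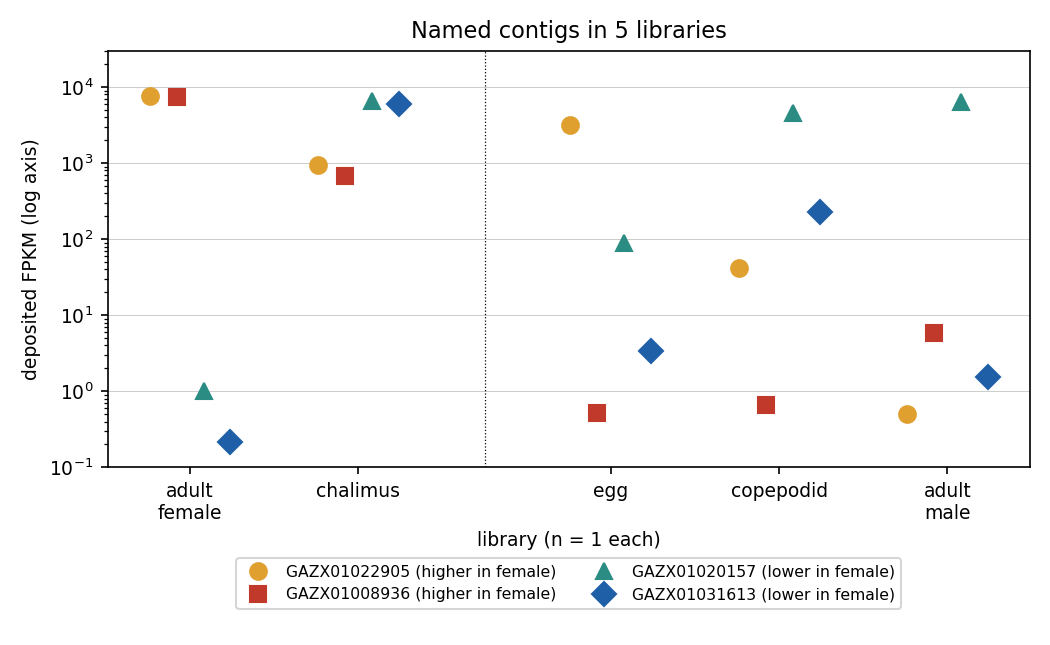
Deposited FPKM on a log axis (vertical) of 4 named contigs in 5 libraries (horizontal, 1 library each), with the compared pair left of the dotted line. GAZX01022905 is high in adult female and egg, GAZX01008936 in adult female, GAZX01020157 in chalimus, copepodid and adult male, and GAZX01031613 in chalimus.

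The 505 lower contigs near the chalimus level in egg only were the smallest group of losses. They held 0.0560% of the adult female counts, against 1.25% of the chalimus counts. In egg they held 1.39%, in copepodid 2.67% and in adult male 0.109%. In 228 of them the egg level was above the chalimus level, and in 287 the copepodid level was. Of all 1238 egg-only contigs with 50 or more chalimus counts, the egg level was above in 611. Both adult libraries held the 505 contigs at low levels, with a median of 0.174 CPM for female and 0.177 CPM for male. The call and the class put both at least 4-fold below chalimus, so this is only a description of the set.

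**Figure D4:**
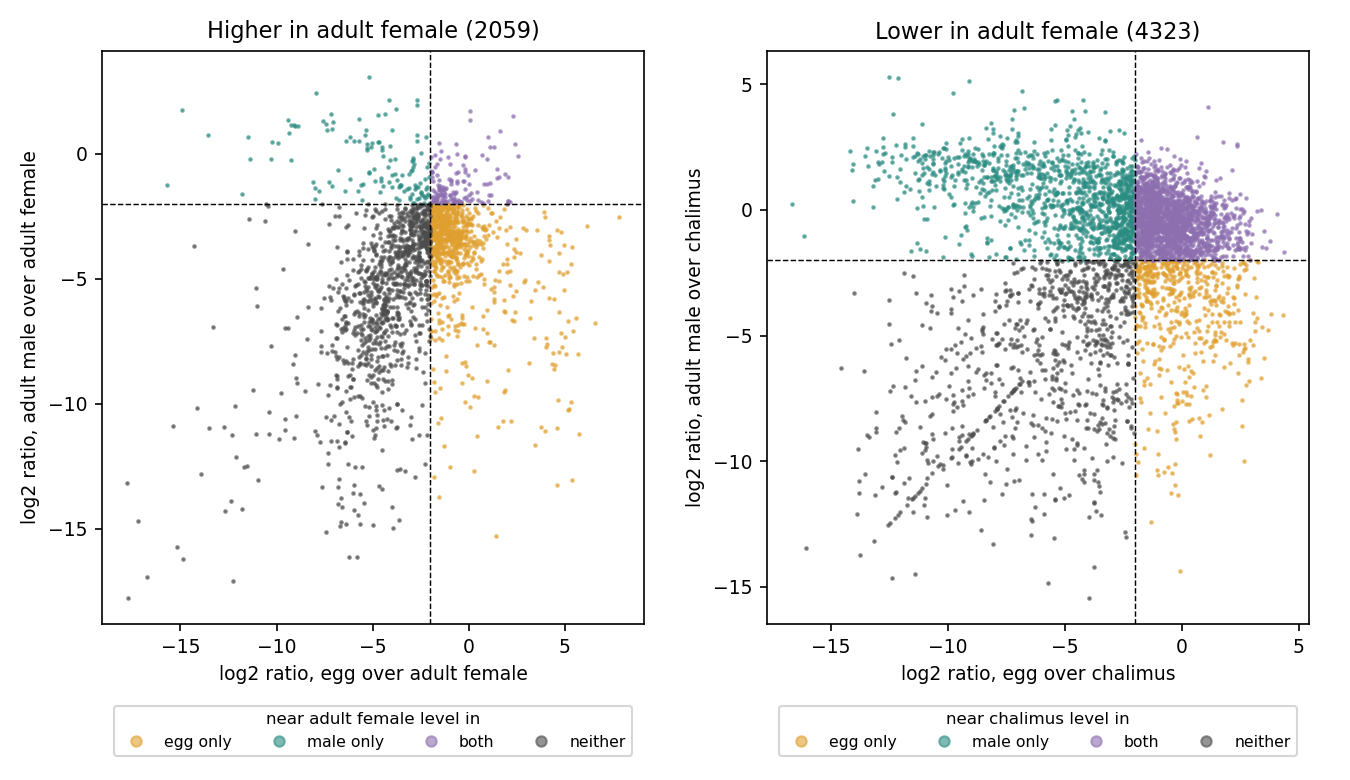
Log2 ratio of adult male (vertical axis) and of egg (horizontal axis) over adult female for the 2059 higher contigs (left) and over chalimus for the 4323 lower contigs (right), with dashed lines at the 4-fold limit. Most higher contigs lie below the horizontal line, that is, over 4-fold lower in adult male than in adult female, while 2985 lower contigs (69.0%) lie above it. Of all contigs with 50 or more chalimus counts, 88.7% were near the chalimus level in adult male.

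Standing in egg and adult male changed with the size of the gain. The adult female level enters both measures, so the shares by size are only a description of the set. Among contigs 4- to 8-fold higher in adult female, 44.0% were near the female level in egg only and 40.8% in neither. Among those 8- to 16-fold higher, 20.0% were near in egg only and 69.9% in neither. This tier also held the most counts, 14.3% of the adult female library against 1.35% of the chalimus library. Among the 95 contigs 64-fold higher or more (0.424% of those tested), 57 (60.0%) were near in egg only and 34 (35.8%) in neither. The most extreme gains were thus more often shared with egg than the intermediate ones. All 44 contigs with 0 chalimus counts fall in this last tier through the added prior count. Of the 51 with counts in both libraries, 29 were near in egg only, 21 in neither and 1 in adult male only.

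The extreme gains shared with egg held a small share of adult female counts and a larger share of egg counts. The class itself takes only contigs with an egg level near or above the female level. The 57 contigs at 64-fold or more and near the female level in egg only held 0.122% of the adult female counts, against 0.000438% of the chalimus counts, and 2.61% of the egg counts. Their median level was 3.74 CPM in adult female and 24.3 CPM in egg. In 41 of them the egg level was above the female level, and in 24 it was at least 4-fold above. The highest reached 12293 CPM in egg. They were also short, with a median of 777 nt.

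Among losses the match with adult male faded as the fold grew. The chalimus level enters both the fold and the match, so the trend is only a description of the set. Adult male was near the chalimus level for 88.3% of the contigs 4- to 8-fold lower in adult female, 80.3% at 8- to 16-fold, 61.2% at 16- to 64-fold and 36.9% at 64-fold or more. For egg the shares were 74.9%, 64.6%, 50.6% and 10.2%. Of the 1071 contigs at 64-fold or more (4.78% of those tested), 602 were near in neither library and 360 in adult male only. Those 602 contigs held 0.0119% of the adult female counts, against 8.93% of the chalimus counts. Those 360 held 0.0116% of the adult female counts, against 4.69% of the chalimus counts, and 6.76% of the adult male counts, and in 304 of them the male level was above chalimus. Of the 750 with counts in both adult female and chalimus, 406 were near in neither and 249 in adult male only.

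**Figure D5:**
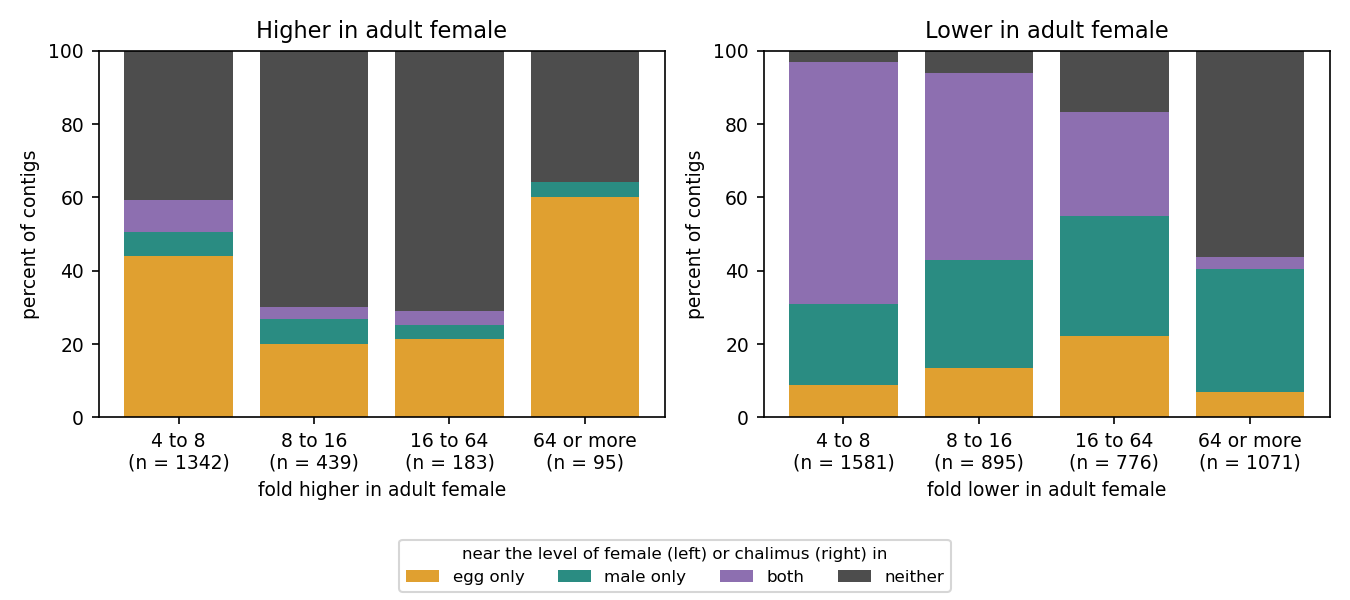
Percent of contigs (vertical axis) near the adult female level (left panel, higher contigs) or the chalimus level (right panel, lower contigs) in egg only, adult male only, both or neither, by size of the fold between adult female and chalimus (horizontal axis). On the left the egg-only share is 60.0% at 64-fold or more against 20.0% at 8- to 16-fold, and on the right the share near in neither reaches 56.2% at 64-fold or more. The fold and the standing share a library, adult female on the left and chalimus on the right.

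The library in which each contig was highest is given as a description, since the call itself keeps chalimus from being highest among higher contigs and adult female among lower ones. Among adult female, chalimus, egg and adult male, adult female was the highest library for 1790 of the 2059 higher contigs (86.9%), egg for 217 and adult male for 52. Over all contigs tested, adult female was the highest for 32.7%, chalimus for 17.5%, egg for 24.8% and adult male for 25.01%. Adult male was the lowest for 1378 of the higher contigs (66.9%), against 32.8% of all contigs tested. The call keeps adult female from being lowest among higher contigs, whereas it was lowest for 29.9% of all tested. With copepodid added, adult male was the lowest for 788 higher contigs (38.3%, against 20.6% of all tested). Copepodid was then the lowest for 947 (46.0%, against 39.9%). Of the 4323 lower contigs, chalimus was the highest for 2277 (52.7%), adult male for 1297 (30.002%) and egg for 749 (17.3%). Adult female was the lowest for 3267 of the lower contigs (75.6%), a share that the choice of contigs with a low female count largely fixes. With copepodid added, it was the highest library for 1048 of the lower contigs (24.2%) and for 96 of the higher ones (4.66%), against 18.8% of all tested.

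Lower contigs were more frequent among short contigs, and higher contigs were about as frequent at every length. Of the 1224 tested contigs under 500 nt, 510 (41.7%) were lower in adult female and 98 (8.01%) were higher. Of the 7567 contigs of 2000 nt or more, 854 (11.3%) were lower and 727 (9.61%) were higher. The lower contigs near in neither egg nor adult male made up 17.6% of the shortest class and 0.740% of the longest. The median length was 1566 nt for higher contigs, 1046 nt for lower contigs and 1617 nt for those within 4-fold.

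Contigs with consecutive identifiers often moved the same way, so the calls are not all independent. For 1624 higher contigs the next identifier was also tested, and in 455 cases (28.0%) it was higher as well, against 9.19% of all contigs tested. For 3184 lower contigs with a tested next identifier, 1574 (49.4%) were followed by another lower one, against 19.3% of all. Where neighbours moved together they had the same standing in egg and adult male in 355 of the 455 higher cases and 1106 of the 1574 lower cases. Counted as unbroken runs of identifiers, the 2059 higher contigs formed 1604 runs and the 4323 lower contigs 2749 runs. The longest run of higher contigs had 12 members, 2.12 to 3.16 higher on the log2 scale, all near the female level in neither egg nor adult male. The longest run of lower contigs had 21 members. Together these held 0.000181% of the adult female counts, against 0.259% of the chalimus counts, and 13 of the 21 were near the chalimus level in egg only and 8 in neither library.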

How the data were processed

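RNA-seq counts of 6 samples were used, of which 5 were taken as independent libraries of pooled animals. The adult file of unstated sex had the summed total of the female and male files. The deposited counts are whole numbers per contig, not normalised by the authors. FPKM are the authors' own values per contig length and library size, per the file headers. No source used here names the aligner, counter or assembler, or how reads matching several contigs were handled. Contig lengths were recovered from counts and FPKM, and were whole within 0.05 nt for 100% of contigs with FPKM over 300.

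Scaling used TMM over all files (edgeR 4.0.16, R 4.3.3), with a prior count of 0.5. DESeq2 1.42.0 size factors and total counts were alternatives. No test was run, since each group has 1 library. The computation was tested on simulated data. Counting intervals are exact at 95% (Clopper-Pearson) if counts are whole reads, a 0 allows up to 3 counts, and both cover counting error only. That limit was 0.0201 CPM in adult female and 0.0258 CPM in chalimus.

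Contigs are named by 1 rule, the highest FPKM in a class, with 2 that rose and 2 that fell. The comparison, classes and rule were chosen with earlier results of these data known.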

Additional observations from a re-analysis of the deposited data

How the results depend on the processing

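The counts of higher and lower contigs stayed within 1.5 times of 2059 and 4323 with total counts, DESeq2 size factors, TMM from the pair alone, count minimums of 10 and 200, a prior count of 2 and contigs of 500 nt or more. With no count minimum 7407 were lower. A fold cut of 2 gave 5982 higher and 7145 lower, and a cut of 8 gave 717 higher and 2742 lower. Among the 13488 contigs whose count in the adult file of unstated sex was within 1% of the female and male sum, 1212 were higher and 2503 lower, 8.99% and 18.6% of those tested. There the higher contigs split into 553 near in egg only, 553 in neither, 59 in adult male only and 47 in both, so neither no longer led egg only, and the lower into 280 in egg only, 791 in adult male only, 942 in both and 490 in neither. Fewer contigs enter that setting by construction. With a 2-fold limit for standing, 454 higher contigs were near in egg only, 87 in adult male only, 28 in both and 1490 in neither. The lower contigs were then 1528 near in adult male only, 1309 in neither, 769 in both and 717 in egg only, so the largest group of losses was adult male only in place of both. The median log2 ratio was 0.23 with a count minimum of 200, -0.04 on total counts and 0.02 on DESeq2 size factors. Scaling moved the share of higher contigs near in egg only between 34.2% and 43.5% and the share near in neither between 45.6% and 50.4%. The 4 named contigs had the same direction under total counts, DESeq2 size factors and TMM from the pair alone, 3 checks added for these contigs after seeing the data. No paired analysis was possible because each group has 1 library. How far 2 pools of the same stage would differ was not measured, so folds near 4 are the least certain.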

Other observations

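Copepodid levels add a further view of both sets. Of the 4323 lower contigs 1261 (29.2%) had 0 counts in the copepodid table, and of the 2059 higher contigs 625 (30.4%) had 0. Of the 16020 contigs within 4-fold, 2003 had 0. Among the 1226 lower contigs near the chalimus level in adult male only, 540 had 0 copepodid counts. Many such contigs were not lower ones: of all 2768 in that class with 50 or more chalimus counts, 1031 had 0. Among the 505 lower contigs near in egg only, 77 had 0 copepodid counts and 135 were at least 4-fold above chalimus in copepodid. Of all 1238 contigs in the egg-only class with 50 or more chalimus counts, 212 had 0 copepodid counts.

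Neighbouring identifiers moved in opposite directions less often than the shares over all tested contigs. A higher contig was followed by a lower one in 157 of 1624 cases (9.67%), against 19.3% of all tested contigs being lower. A lower contig was followed by a higher one in 176 of 3184 cases (5.53%), against 9.19%.

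Just inside the count limit, 287 contigs had 50 to 54 counts in the higher library, with a median log2 ratio of -1.25. Just outside it, 336 contigs had 45 to 49 counts, with a median of -0.97.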
